A study of Mus musculus with 6 samples.

Results

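The genes described here are translation initiation factors around Eif4g2: the scaffolds Eif4g1, Eif4g2 and Eif4g3, the cap-binding proteins Eif4e and Eif4e2, the helicases Eif4a1 and Eif4a2, the helicase cofactor Eif4b, and the inhibitors Eif4ebp1 and Eif4ebp2. A probe set, the group of short probes that reads 1 transcript or several, was taken when the platform's annotation gave it 1 gene symbol and that symbol was on this list. This gave 33 of the 45037 probe sets tested, for 9 of the 10 genes, among 18193 genes named on the array. Eif4g1 had no probe set under this rule and was not analysed here. The list was built around Eif4g2 because 1 of its probe sets had stood out in earlier results from these same arrays, and the other genes were added for their function. The values of Eif4g2 between the groups are therefore given as a description, with no test.

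Most mRNAs of the cell are translated after the eIF4F complex has bound their cap. In this complex eIF4E holds the cap, eIF4A unwinds the leader of the mRNA with the help of eIF4B, and eIF4G joins both to the small ribosomal subunit through eIF3. The 4E-binding proteins compete with eIF4G for eIF4E and let go of it when the kinase complex mTORC1 phosphorylates them, which is how growth signals reach protein synthesis in heart muscle. The protein of Eif4g2, also called DAP5, p97 or NAT1, resembles the later part of eIF4G but has no binding region for eIF4E, and it supports initiation that does not use eIF4E.

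The arrays measured mRNA in the apex of the heart ventricles of mice from a line transgenic for PR-M, a human progesterone receptor of the mitochondrion. In 3 samples, by their labels, the heart was PR-M expressing and in the other 3 PR-M non-expressing. All 6 received 2.5 mg of progesterone in oil under the skin for 19 to 21 days, so no array shows the heart without the hormone. Strain, age, the promoter of the transgene, how expression was established and whether the non-expressing samples carry the transgene stand in none of the sources used here. The labels do not say whether each array is a different mouse, and a p-value then speaks only of the spread among these arrays, which may be technical. In their titles all expressing samples have the same prefix while the non-expressing ones have 2 others, so a prefix and the PR-M group cannot be told apart.

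Each value is on a log2 scale, where a difference of 1 is a doubling, and is relative to the other genes of its array. The number of arrays limits the precision. Over all probe sets tested the values lay between 2.09 and 14.8 with array medians of 5.77 to 5.78, and the arrays correlated with each other at Pearson's r of 0.992 to 0.997. The genes of ventricular muscle were bright in all 6 arrays, with Myh6 at 14.56 to 14.62, Myl2 at 14.63 to 14.73 and Tnnt2 at 14.25 to 14.41. The 3 probe sets of the mouse gene Pgr were dim, at 3.14 to 4.70, and say nothing of the human receptor unless the sequences are alike. Of the 33 probe sets described here 28 had a mean above 5.77, the median of the means of all probe sets, and the other 5 are called dim.

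The brightest probe set of Eif4g2 was lower in every expressing array, while its next brightest probe sets were slightly higher there. The probe set 1452758_s_at read 12.66, 12.66 and 12.63 in the expressing arrays, against 13.43, 13.43 and 13.39 in the non-expressing arrays. The groups stood 0.73 apart, and within each group the 3 arrays were nearly equal. The means were 12.65 ± 0.018 in expressing and 13.42 ± 0.024 in non-expressing arrays (SD, n = 3 each), a log2 difference of -0.77 (SE 0.07), which is 1.70-fold lower in expressing arrays. A difference of this size or larger in either direction was found in 0.295% of all probe sets. Since the probe set was chosen for its difference, this share describes it and tests nothing.

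The second probe set, 1415863_at, ran the other way, with 11.99, 11.93 and 11.91 in the expressing arrays and 11.66, 11.78 and 11.72 in the non-expressing arrays. The third, 1428362_at, read 11.25, 11.20 and 11.27 in the expressing arrays and 11.18, 10.82 and 10.90 in the non-expressing arrays. Their log2 differences were 0.22 (SE 0.08) and 0.28 (SE 0.10). In both of them the lowest expressing array was above the highest non-expressing array, by 0.12 for 1415863_at and by 0.02 for 1428362_at, where non-expressing replicate 1 nearly reached the expressing arrays. With 1 array left out the difference of 1428362_at lay between 0.20 and 0.38, and it was 0.38 without that replicate.

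The remaining pair of Eif4g2 probe sets was dim, and the groups overlapped in both. The values of 1458431_at were 5.67, 5.42 and 5.66 in expressing and 5.75, 5.77 and 5.46 in non-expressing arrays, a difference of -0.07. For 1428363_at they were 4.17, 4.13 and 4.53 in expressing and 4.17, 4.09 and 4.10 in non-expressing arrays, a difference of 0.15 that came from expressing replicate 3 alone, since it was 0.03 without that array.

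**Figure D1:**
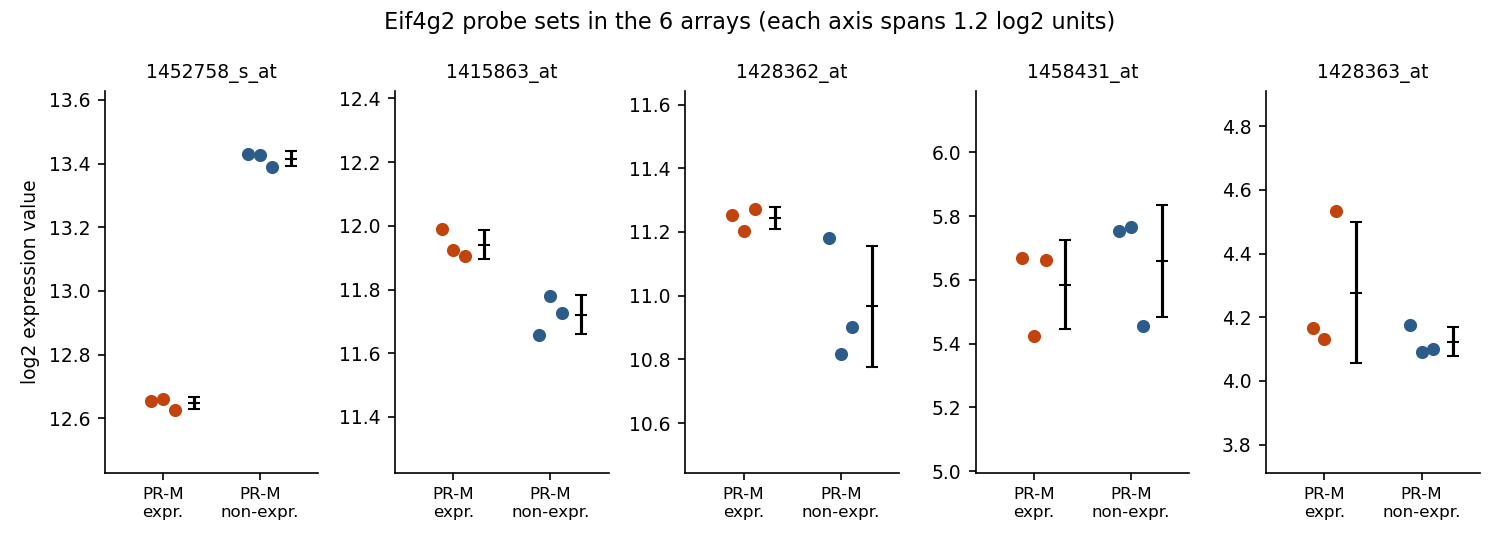
Log2 expression values of the 5 Eif4g2 probe sets, 1 panel each and 1 point for each array, with the 3 PR-M expressing arrays left of the 3 non-expressing arrays and the mean ± SD as bars; every vertical axis spans the same number of log2 units. The first panel has the expressing arrays at 12.63 to 12.66 and the non-expressing arrays at 13.39 to 13.43, the next 2 panels have the expressing arrays slightly above, and in the 2 dim probe sets the groups overlap.

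Set against each other within an array, the probe sets of Eif4g2 changed their distance between the groups. The brightest one exceeded 1415863_at by 0.67, 0.73 and 0.72 in the expressing arrays, against 1.77, 1.65 and 1.66 in the non-expressing arrays. The mean gap was 0.71 ± 0.037 in expressing and 1.69 ± 0.068 in non-expressing arrays (SD, n = 3 each), a log2 difference of -0.99. Against 1428362_at the mean gap was 1.41 ± 0.050 in expressing and 2.45 ± 0.18 in non-expressing arrays, a log2 difference of -1.04. The annotation traces 1452758_s_at, 1428362_at and 1428363_at to the same source sequence, so these 3 probe sets were designed from 1 transcript record and still differed by -0.77, 0.28 and 0.15. The ending _s_at marks probes that can match transcripts of more than 1 gene, whereas a plain _at marks probes chosen to match 1 transcript. Which part of the transcripts each probe set reads was not analysed here, and the letters of the probes were not used.

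The only one of the 33 probe sets past an adjusted p of 0.05 in limma over all 45037 probe sets was 1452758_s_at, which follows from its having been chosen and is no result about these genes. The share of all probe sets that passed was 0.0133% in either direction, made up of 0.0111% lower and 0.00222% higher in expressing arrays. The count of 1 in 33 was 1 without non-expressing replicate 1 and 0 without any single one of the other 5 arrays, and it was 0 when the title prefix entered as a random block, while the difference stayed between -0.78 and -0.76 with 1 array left out. With 1 probe set a gene, the brightest, 1 of the 9 genes was past the threshold, again Eif4g2 through the probe set it was chosen for, so nothing is read from this count. Of all genes 0.066% passed, 0.033% lower and 0.033% higher. The count of genes was 0 without expressing replicate 2 or 3 and without non-expressing replicate 2 or 3. With the mean of its 5 probe sets Eif4g2 differed by -0.04, and without probe sets ending in _x_at or _s_at it was represented by 1415863_at and differed by 0.22.

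Several measures of the arrays and of other cells moved with the groups beside these values, and others overlapped. The mean of the array's control probes for 18S ribosomal RNA was 8.31 ± 0.22 in expressing and 9.88 ± 0.38 in non-expressing arrays (SD, n = 3 each; exact permutation p = 0.1, two-sided, the smallest possible with 3 against 3). The difference between the 3′ and 5′ control probe sets for beta-actin, which grows as RNA breaks down, was 1.23 ± 0.049 in expressing and 1.38 ± 0.068 in non-expressing arrays (SD, n = 3 each; exact permutation p = 0.1, two-sided). The same measure for Gapdh overlapped between the groups, at 0.17 ± 0.063 in expressing and 0.25 ± 0.073 in non-expressing arrays (SD, n = 3 each; exact permutation p = 0.3, two-sided). Cell type markers were summed on the linear scale, brightest probe set of each. The sums overlapped between the groups for ventricular muscle, endothelium, smooth muscle and pericytes, macrophages, erythroid cells and adipocytes. They were apart for atrial muscle, fibroblasts and Schwann cells. Of 6 atrial muscle markers 5 were higher, and the sum of all 6 was 2554 to 9236 in expressing and 694 to 2057 in non-expressing arrays. Among them 3 passed over all genes in limma, Sln, Myl4 and Myl7, with adjusted p of 0.035 to 0.045. Their log2 differences were 3.45 to 3.89, while Bmp10 was nearly level at -0.03. No marker of the other cell types passed. All 6 fibroblast markers were higher, with sums of 22981 to 25122 in expressing and 19487 to 21665 in non-expressing arrays. Of the Schwann cell markers 2 were measured, Mbp and Sox10, with sums of 235 to 269 in expressing and 184 to 201 in non-expressing arrays. This came mostly from Mbp, with a log2 difference of 0.88 beside 0.05 for Sox10. Bmp10 was the lowest marker of these 3 lists and a dim one, with a mean of 5.67, below the median level of 5.77. The part of these measures and markers in the values of the initiation factors was not tested. In whole tissue, fewer cells of a type and less RNA per cell cannot be told apart.

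The other measured scaffold gene, Eif4g3, a close relative of Eif4g1, was read by 4 probe sets, and its brightest was slightly higher in expressing arrays. That probe set, 1426833_at, had values of 9.38, 9.24 and 9.22 in the expressing arrays, against 9.02, 9.13 and 9.14 in the non-expressing arrays. The groups did not overlap, but the log2 difference of 0.18 (SE 0.08) did not pass (limma adjusted p 0.417). The moderately bright 1446145_at was almost level, at 6.28, 6.23 and 6.28 in expressing and 6.17, 6.27 and 6.27 in non-expressing arrays. The dim 1430578_at gave 4.67, 4.97 and 4.89 in expressing and 5.05, 5.05 and 4.62 in non-expressing arrays. The dim 1440571_at gave 3.66, 3.80 and 3.93 in expressing and 3.65, 3.81 and 3.69 in non-expressing arrays. In these 3 probe sets the groups overlapped, and the differences were 0.03, -0.06 and 0.08.

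Eif4e, which encodes the cap-binding subunit and the target of the 4E-binding proteins, had 4 probe sets that spread around no difference. Its brightest probe set, 1450908_at, was at 10.92, 10.89 and 10.81 in expressing and 10.90, 10.64 and 10.70 in non-expressing arrays. The next, 1423220_at, was at 10.39, 10.49 and 10.35 in expressing and 10.57, 10.21 and 10.36 in non-expressing arrays. The third, 1450909_at, was at 8.59, 8.74 and 8.59 in expressing and 8.87, 8.48 and 8.60 in non-expressing arrays. These 3 share a source sequence, the groups overlapped in each, and the differences were 0.12 (SE 0.09), 0.03 (SE 0.10) and -0.01 (SE 0.11), with limma adjusted p of 0.613, 0.930 and 0.974. Non-expressing replicate 1 was the highest of its group in all 3, and without it the differences were 0.20, 0.12 and 0.10. The fourth probe set, 1444010_at, from another source sequence and only a little above the median level, stood apart from them. It read 5.58, 5.79 and 5.86 in the expressing arrays, all below the 5.94, 6.14 and 6.05 of the non-expressing arrays. Its log2 difference of -0.30 (SE 0.10) was the largest in size among the 28 probe sets of genes other than Eif4g2, and it did not pass (limma adjusted p 0.306).

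Eif4e2 encodes a relative of eIF4E, also called 4EHP, that binds the cap without eIF4G and takes part in repressing certain mRNAs. Of its 5 probe sets 4 were lower and 1 was higher in expressing arrays, and none passed. The brightest, 1455108_at, had values of 8.69, 8.74 and 8.72 in expressing and 8.77, 8.75 and 8.89 in non-expressing arrays. The probe set 1421985_a_at had 8.25, 8.24 and 8.17 in expressing and 8.32, 8.33 and 8.38 in non-expressing arrays. For 1435803_a_at the values were 7.82, 7.52 and 7.60 in expressing and 7.87, 7.84 and 7.90 in non-expressing arrays. In these 3 the expressing arrays all lay below the non-expressing arrays, though by 0.01, 0.07 and 0.02 only, and the differences were -0.09 (SE 0.08), -0.12 (SE 0.07) and -0.22 (SE 0.09), with limma adjusted p of 0.686, 0.531 and 0.397. The less bright 1421986_at overlapped, with 5.99, 5.87 and 5.82 in expressing and 6.11, 5.96 and 6.01 in non-expressing arrays. The exception in direction was 1435804_at, at 6.32, 6.19 and 6.10 in expressing and 6.07, 6.18 and 5.98 in non-expressing arrays, which also overlapped. It shares its source sequence with 1435803_a_at, and the pair differed by 0.13 and -0.22.

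The helicase genes were read by 4 probe sets, all of them higher in expressing arrays by small amounts that did not pass. Eif4a1 encodes the main eIF4A of most tissues. Its probe set 1434985_a_at was at 11.17, 11.13 and 11.07 in expressing and 11.12, 11.15 and 11.02 in non-expressing arrays. Its probe set 1427058_at was at 11.00, 10.89 and 10.93 in expressing and 10.73, 10.79 and 10.66 in non-expressing arrays. Its probe set 1430980_a_at was at 9.83, 9.65 and 9.76 in expressing and 9.59, 9.76 and 9.48 in non-expressing arrays. Only 1427058_at of these 3 held the groups apart, and the differences were 0.03 (SE 0.08), 0.21 (SE 0.08) and 0.14 (SE 0.10), with limma adjusted p of 0.903, 0.332 and 0.584. Eif4a2, the gene of the second eIF4A, has a single probe set, 1450934_at. It read 12.72, 12.67 and 12.67 in the expressing arrays, just above the 12.44, 12.63 and 12.64 of the non-expressing arrays. Its log2 difference was 0.11 (SE 0.08, limma adjusted p 0.610), and 0.05 without non-expressing replicate 1, the lowest array.

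Eif4b, whose protein stimulates the helicase, had 3 probe sets that share a source sequence and did not point one way. The brightest, 1426380_at, was level, at 10.12, 10.17 and 10.16 in expressing and 10.11, 10.10 and 10.19 in non-expressing arrays. The probe set 1426378_at was higher in each expressing array, with 8.94, 9.01 and 9.09 against 8.81, 8.86 and 8.87 in the non-expressing arrays. The probe set 1426379_at was at 8.45, 8.52 and 8.64 in expressing and 8.67, 8.59 and 8.62 in non-expressing arrays, which overlapped. The 3 differences were 0.02 (SE 0.07), 0.17 (SE 0.08) and -0.09 (SE 0.08), with limma adjusted p of 0.941, 0.417 and 0.692.

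The inhibitor genes showed no difference that passed. For Eif4ebp1, the gene of 4E-BP1, all 3 probe sets had differences below 0. The probe set 1434976_x_at was at 10.62, 10.67 and 10.52 in expressing and 10.68, 10.75 and 10.68 in non-expressing arrays, apart by 0.01. The probe set 1417562_at was at 10.22, 10.25 and 10.31 in expressing and 10.21, 10.30 and 10.28 in non-expressing arrays. The least bright, 1417563_at, was at 7.24, 7.40 and 7.05 in expressing and 7.32, 7.37 and 7.25 in non-expressing arrays. Their differences were -0.10 (SE 0.08), -0.01 (SE 0.07) and -0.08 (SE 0.10), and the limma adjusted p were 0.624, 0.979 and 0.775. The ending _x_at marks probes that may bind unrelated transcripts.

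Eif4ebp2, the gene of 4E-BP2, had 5 probe sets, 2 higher and 3 lower in expressing arrays. The brightest, 1437733_at, was at 7.60, 7.63 and 7.73 in expressing and 7.59, 7.49 and 7.62 in non-expressing arrays. The probe set 1417084_at was also on the higher side, at 7.02, 6.97 and 7.20 in expressing and 6.83, 6.98 and 6.79 in non-expressing arrays. The groups overlapped in both, and the differences were 0.09 (SE 0.08, limma adjusted p 0.678) and 0.20 (SE 0.09, limma adjusted p 0.439). The one probe set of the gene without overlap lay on the other side: 1455575_at read 6.11, 6.12 and 6.10 in expressing and 6.30, 6.24 and 6.26 in non-expressing arrays, a difference of -0.16 (SE 0.07, limma adjusted p 0.419). Its expressing arrays had an SD of 0.010, the smallest of any group among the 33 probe sets. The probe set 1436158_at, from the same source sequence, was at 7.24, 7.09 and 7.23 in expressing and 7.48, 7.15 and 7.14 in non-expressing arrays. The dim 1456613_at was at 5.24, 5.41 and 5.43 in expressing and 5.40, 5.15 and 5.75 in non-expressing arrays. Both overlapped with differences of -0.07, and the second had the widest group of the 33, with an SD of 0.30 in the non-expressing arrays.

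Over the 33 probe sets 17 were higher and 16 lower in expressing arrays, with a median difference of 0.02. Over all probe sets the median was -0.02, and 44.4% were higher. By role, the helicases had 4 higher and 0 lower, the scaffolds 6 and 3, the helicase cofactor 2 and 1, the cap-binding genes 3 and 6, and the inhibitors 2 and 6. The groups did not overlap in 13 of the 33, or 39.4%, 6 of them higher and 7 lower, beside 18.6% of all probe sets. This 18.6% is made up of 8.27% higher and 10.3% lower. The 13 all had a mean above the median level, whereas the share over all probe sets also counts dim ones. The share among equally bright probe sets was not computed. Leaving out Eif4g2, they did not overlap in 10 of 28, or 35.7%, with differences from -0.30 to 0.21. None of these 28 passed, their limma adjusted p lay between 0.306 and 0.979, and 3 had an unadjusted p under 0.05, beside 12.2% of all probe sets.

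**Figure D2:**
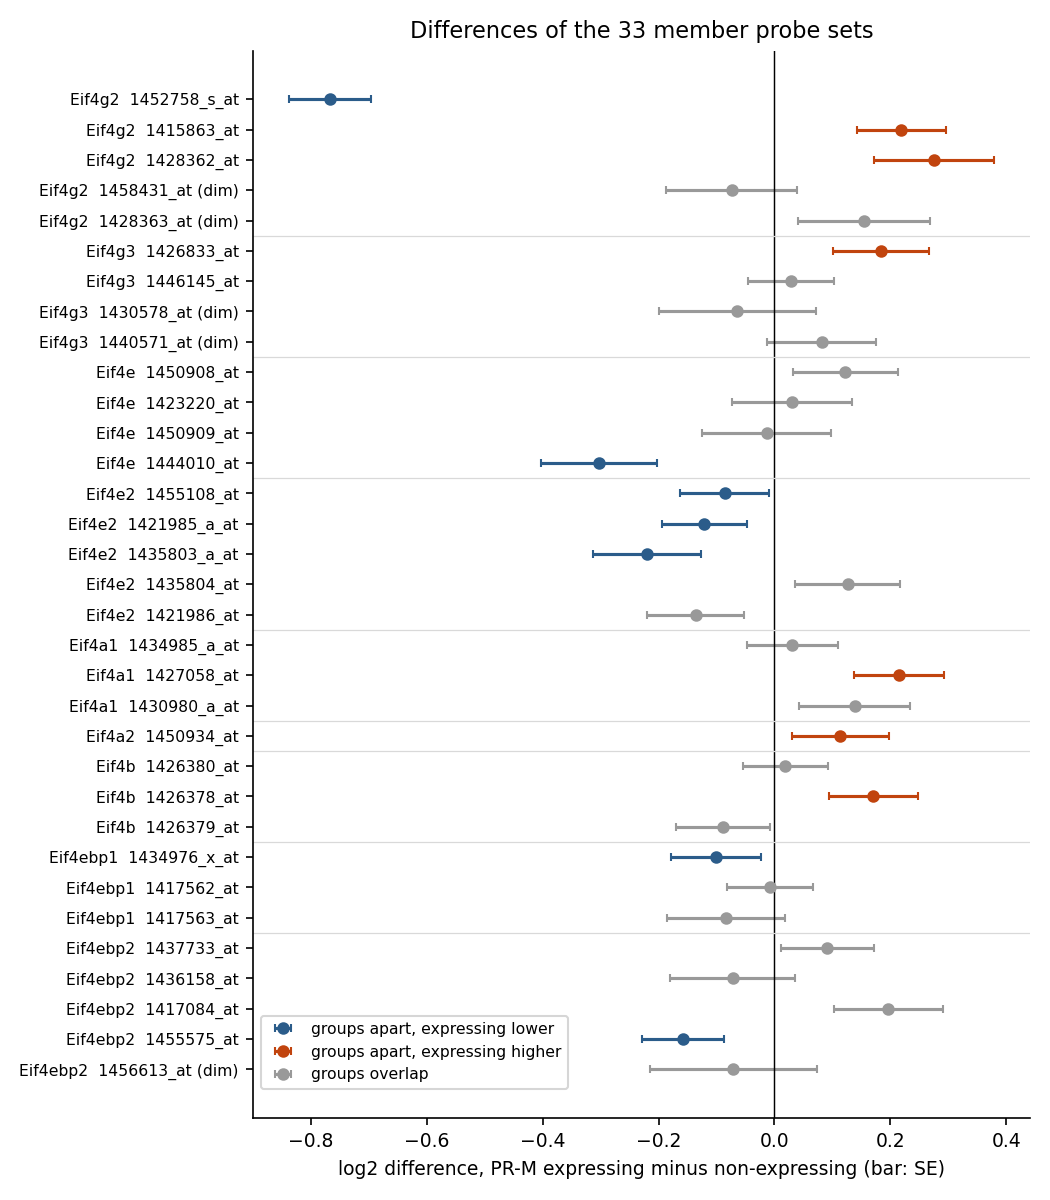
Log2 difference of each of the 33 probe sets, PR-M expressing minus non-expressing, with its SE as a bar, grouped by gene; red and blue mark probe sets whose groups do not overlap. The brightest Eif4g2 probe set lies at -0.77, and the other 32 lie between -0.30 and 0.28.

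**Figure D3:**
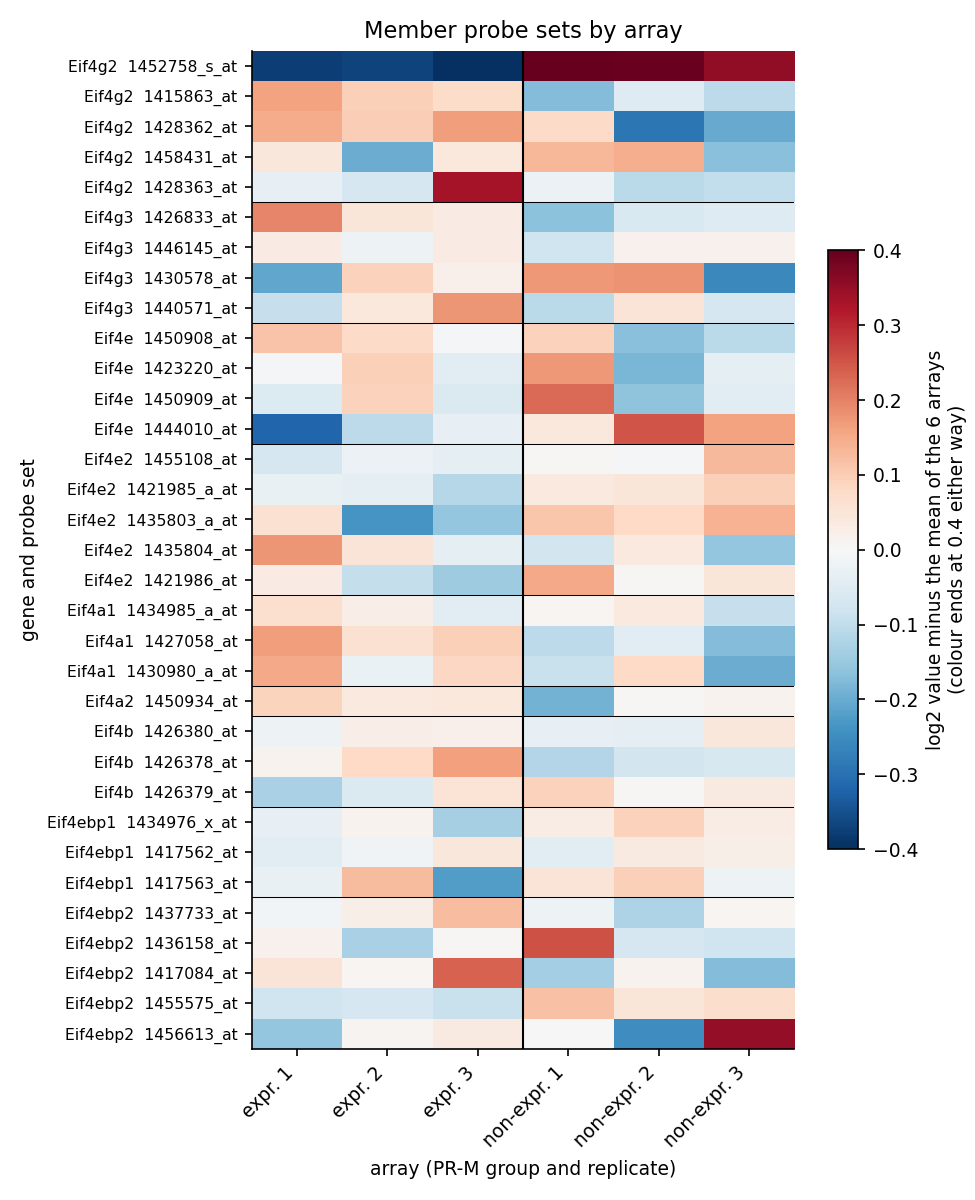
Log2 value of each of the 33 probe sets minus its mean over the 6 arrays, with the 3 expressing arrays left of the 3 non-expressing arrays; colours stop at 0.4 in either direction. The first Eif4g2 row is split evenly between the groups, while in most other rows the arrays of a group differ among themselves.

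How far the probe sets of a gene disagreed was measured by the range of their differences, highest minus lowest, among probe sets above the median level. For Eif4g2 this range was 1.04, and 9 of the 4863 genes with several such probe sets had one as large, or 0.185%. The median range over those genes was 0.13. Since 1 end of the Eif4g2 range is the value for which the gene was chosen, this describes it and tests nothing. The other genes lay lower, with a range of 0.42 for Eif4e, 0.35 for both Eif4ebp2 and Eif4e2, 0.26 for Eif4b, 0.18 for Eif4a1, 0.15 for Eif4g3 and 0.09 for Eif4ebp1. The shares of genes with a range as large were 4.91% for Eif4e, 8.45% for Eif4ebp2 and 9.01% for Eif4e2, and the range of Eif4ebp1 was below the median. Disagreement as wide was found in several of the genes whose brightest probe set passed over all genes. Those genes too were picked by the difference of 1 probe set that enters the range, so their ranges also test nothing. They were taken over all probe sets of a gene, where the range of Eif4g2 was again 1.04. Over all probe sets of a gene, the range was 3.74 for Sln, 3.58 for Myl4, 1.66 for Pabpn1, 1.43 for Ampd2 and 1.08 for Cenpb, all above that of Eif4g2, and 0.82 for Fign, 0.60 for Gsdme and 0.11 for Abi3bp.

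**Figure D4:**
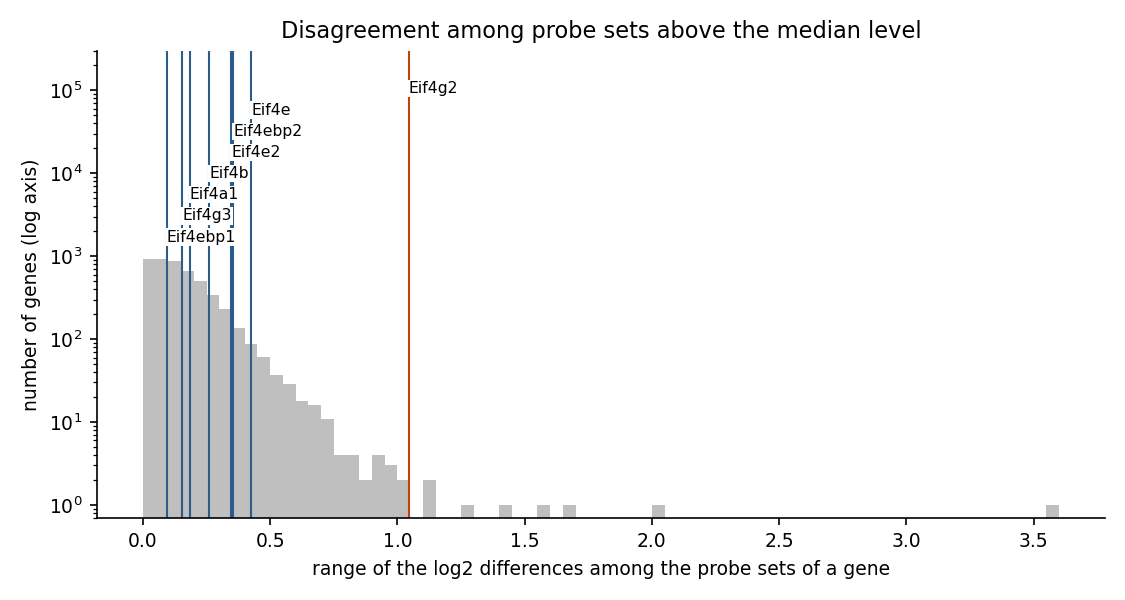
Number of genes, on a log axis, by the range of the log2 differences among their probe sets above the median level, for 4863 genes with several such probe sets; lines mark the genes described here. Eif4g2 lies at 1.04 in the thin right tail, and the other 7 marked genes lie at 0.42 or below.

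The arrays were also compared by how often each was the extreme one. Non-expressing replicate 1 was the highest or lowest of the 6 arrays in 14 of the 33, beside 45.4% of all probe sets, which makes 42.4% here. Expressing replicate 2 was so least often, in 4 of the 33, or 12.1%, beside 26.2% of all probe sets. The other 4 arrays were extreme in 11 to 13 of the 33.

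For each Eif4g2 probe set the 3 named probe sets with the most similar course over the 6 arrays were found by Pearson's r, which with 6 arrays in 2 groups mostly reads the difference between the groups. Those closest to 1452758_s_at were a probe set of Gimap5 (r = 0.996), one of Ccdc107 (r = 0.995) and one of Gsdme, the gene of gasdermin E (r = 0.994), all lower in expressing arrays without overlap, by -0.38, -0.35 and -0.64 on the log2 scale. Those closest to 1415863_at belonged to Smim10l1 (r = 1.000), Lsm1 (r = 0.994) and Nufip2 (r = 0.993), and those closest to 1428362_at to Rbpj (r = 0.997), Clip4 (r = 0.996) and Rit1 (r = 0.995), all 6 higher in expressing arrays without overlap. The dim 1458431_at was closest to probe sets of Kdm1a, Acox2 and Tnk1, with r of 0.990, 0.983 and 0.979, and the dim 1428363_at to Syt14, Lats2 and Tmem72, with r of 0.988, 0.987 and 0.986. So high an r is common with 45037 probe sets and 6 arrays: the third highest r was at least 0.978 for each of the 33 probe sets.

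The genes that work with eIF4F were looked at through 5 lists, written by function, of 67 genes, of which 59 were measured under the same rule and 8 were not analysed here. With the brightest probe set of each, 0 of the 59 passed over all genes in limma, beside 0.066% of all genes, and 7 had an unadjusted p under 0.05, beside 11.4% of all genes. The groups did not overlap in 16 of the 59, or 27.1%, beside 19% of all genes. Of the 59 genes 23 were higher and 36 lower in expressing arrays, with a median difference of -0.03, beside -0.02 over all genes. Among all genes 44.0% were higher, so the counts of each list below are to be read beside that share.

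Of 12 partners of eIF4F, 0 passed, 5 were higher and 7 lower, with a median of -0.02. Paip2b, whose protein inhibits the poly(A)-binding protein, had the lowest p of the list. It was at 9.13, 9.33 and 9.33 in expressing and 9.66, 9.62 and 9.63 in non-expressing arrays, without overlap, a log2 difference of -0.37 (SE 0.08, limma adjusted p 0.208). Its other probe set, much less bright, differed by 0.09. Ddx3x, the gene of an RNA helicase that helps ribosomes through structured leaders, was at 11.50, 11.42 and 11.43 in expressing and 11.12, 11.27 and 11.24 in non-expressing arrays. Its log2 difference was 0.24 (SE 0.08, limma adjusted p 0.348), and its other 2 probe sets differed by 0.15 and 0.26, also without overlap.

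Of 12 genes of the kinases and of mTORC1 signalling, 0 passed, 6 were higher and 6 lower, with a median of 0.00. Mknk2, which encodes a kinase that phosphorylates eIF4E, was at 11.36, 11.50 and 11.69 in expressing and 11.83, 11.85 and 11.75 in non-expressing arrays, a log2 difference of -0.29 (SE 0.10, limma adjusted p 0.352). Rptor, the gene of the mTORC1 subunit that recruits the 4E-binding proteins, was at 8.84, 8.82 and 8.85 in expressing and 8.70, 8.59 and 8.75 in non-expressing arrays, a log2 difference of 0.16 (SE 0.08, limma adjusted p 0.478). The groups were apart in both genes, and the further probe sets of each overlapped.

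Of 11 subunit genes of eIF3, 0 passed, 3 were higher and 8 lower, with a median of -0.04. Eif3c had the largest difference of the 59 genes in size. Its brightest probe set, which ends in _x_at, was at 10.80, 10.90 and 11.04 in expressing and 11.28, 11.28 and 11.38 in non-expressing arrays, a log2 difference of -0.40 (SE 0.09, limma adjusted p 0.208). Its other 3 probe sets differed by -0.16 to 0.01, 2 lower and 1 nearly level, so the probe sets of this gene disagreed in size more than in direction. Eif3k, with a single probe set, was at 10.19, 10.22 and 10.28 in expressing and 10.32, 10.36 and 10.45 in non-expressing arrays, a log2 difference of -0.15 (SE 0.08, limma adjusted p 0.497).

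Of 11 genes of start codon selection and subunit joining, 0 passed, 4 were higher and 7 lower, with a median of -0.02. Eif5, whose protein makes eIF2 hydrolyse its GTP at the start codon, was at 10.72, 10.57 and 10.66 in expressing and 10.39, 10.39 and 10.42 in non-expressing arrays, a log2 difference of 0.25 (SE 0.08, limma adjusted p 0.334). Of its other 4 probe sets 2 were also higher without overlap, by 0.30 and 0.17. The groups overlapped in the other 2, which differed by -0.10 and, nearly level, by -0.0034. Denr, whose protein acts in ribosome recycling and reinitiation, was at 9.59, 9.67 and 9.62 in expressing and 9.77, 9.86 and 9.78 in non-expressing arrays, a log2 difference of -0.18 (SE 0.07, limma adjusted p 0.414). Its other probe set, a dim one, differed by -0.15 with overlap.

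Of 13 genes of eIF2, of its exchange factor eIF2B and of the enzymes that phosphorylate eIF2 or reverse this, 0 passed, 5 were higher and 8 lower, with a median of -0.04. Eif2s2, the gene of the beta subunit of eIF2, was at 11.26, 11.18 and 11.23 in expressing and 11.29, 11.54 and 11.42 in non-expressing arrays, a log2 difference of -0.19 (SE 0.09, limma adjusted p 0.448). Of its other 5 probe sets 3 were also lower, by -0.14 without overlap and by -0.12 and -0.09 with overlap. The 2 higher ones overlapped, with differences of 0.05 and, in a dim probe set, 0.43. Eif2s3x, the X-linked gene of the gamma subunit, was at 10.75, 10.80 and 10.73 in expressing and 10.58, 10.64 and 10.62 in non-expressing arrays, a log2 difference of 0.15 (SE 0.07, limma adjusted p 0.476). Its other 2 probe sets differed by 0.13 without overlap and, in a dim one, by -0.13 with overlap. Eif2s3x has a close relative on the Y chromosome, and whether its probes also bind transcripts of that gene was not analysed here.

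**Figure D5:**
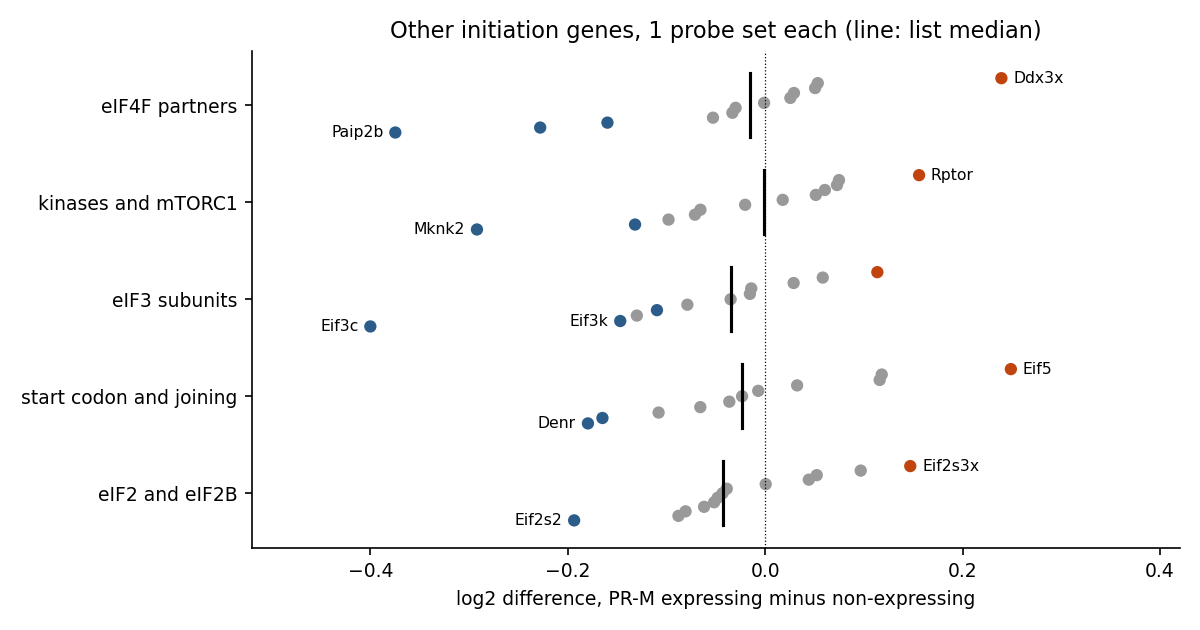
Log2 difference, PR-M expressing minus non-expressing, of the brightest probe set of each of the 59 measured initiation genes in 5 lists, with the list median as a vertical line; red and blue mark genes whose groups do not overlap, and the 2 genes with the lowest p of each list are named. The medians lie between -0.04 and 0.00, and single genes between -0.40 for Eif3c and 0.25 for Eif5.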

How the data were processed

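The authors deposited 1 log2 value for each probe set and array, measured from 500 ng of total RNA a sample. RMA and Partek 6.6 are named, with no role or order, per the submitters' processing notes, and no further setting stands in the sources used here. That the unit is log2 follows from the range of the values. Ranked within each array they were never more than 0.155 apart between arrays, so all arrays had nearly the same distribution and a change of all genes together would not show. Of 45101 probe sets 64 controls were left out of the tests. Symbols came from the platform annotation, and 0 changed when matched by gene identifier to the RefSeq table of GRCm38.p6.

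The groups were compared by limma 3.58.1 under R 4.3.3 (eBayes after lmFit, two-sided, prior of 4.48 degrees of freedom beside 4 residual ones), with Benjamini-Hochberg adjustment over 45037 probe sets and a threshold of 0.05. For genes, the p of the brightest probe set over the 6 arrays was adjusted over 18193 genes. SE is the moderated standard error, and the fit was tested on simulated data. The genes, lists and rules were chosen with earlier results of these arrays known. Each initiation list gave by name its 2 genes with the lowest p where none passed, and likeness gave the 3 probe sets with the highest r. Replicates are numbered in record order and pair no samples. Alternatives were each array left out, array weights, ordinary statistics, a robust prior with an intensity trend, a random block for the title prefix (statmod 1.5.0, correlation 0.117), quantile, cyclic loess and median scaling, dim probe sets left out, other ways to represent a gene and, chosen after seeing the data, a refit on the brightest probe sets alone.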

Additional observations from a re-analysis of the deposited data

How the results depend on the processing

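The difference of the brightest Eif4g2 probe set lay between -0.79 and -0.76 under every scaling, prior, weight, block and left-out array that was run, and its distance from 1415863_at changed between the groups by -1.01 to -0.95 with 1 array left out. The number of the 33 probe sets that passed was 0 with the title prefix as a block and 0 to 1 with 1 array left out. The number of the 9 genes that passed was 0 with the mean of all probe sets or without _x_at and _s_at probe sets, and 0 to 1 with 1 array left out. Without _x_at and _s_at probe sets Eif4g2 turned to 0.22 because another probe set represents it. With the mean of all probe sets Eif4e was -0.041 and Eif4ebp2 was -0.0025. With array weights 1430578_at of Eif4g3 was 0.015 and 1450909_at of Eif4e was 0.062. Differences near 0 changed sign with 1 array left out, among them 1458431_at of Eif4g2 (-0.18 to 0.0069). For Eif4g3 these were 1446145_at (-0.0035 to 0.046) and 1430578_at (-0.21 to 0.024), for Eif4e 1423220_at (-0.053 to 0.12) and 1450909_at (-0.098 to 0.096), and for Eif4a1 1434985_a_at (-0.0078 to 0.060). They were 1417562_at (-0.033 to 0.012) and 1417563_at (-0.17 to 0.0075) for Eif4ebp1, and 1436158_at (-0.13 to 0.038) and 1456613_at (-0.21 to 0.088) for Eif4ebp2. Over all probe sets 6 passed, and 31 with dim ones left out, 37 with an intensity trend and robust prior, 43 with array weights, 2 without the shared prior and 0 to 44 with 1 array left out. Over all genes 12 passed, and 23 with the trend, 26 with array weights, 4 with the block, 1 without the shared prior, 1 with the mean of all probe sets, 2 without _x_at and _s_at, 4 with the refit and 0 to 18 with 1 array left out. The causes of these moves were not tested. Of the initiation lists 0 genes passed under every alternative run. No paired analysis was possible because the labels name no pairs of samples. Changes in dim probe sets, near background, may not show.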
